A study of Helianthus annuus with 180 samples.

Results

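At ZT16, in the early night, the stem of a solar tracking sunflower is swinging back from west to east, and the comparison described here is between the west and the east side of that stem. ZT counts hours from dawn. The members are 12 of the 180 libraries of the series and 12 of the 72 taken in the field, chosen from the labels by side and time: 6 libraries of the west side and 6 of the east side, 3 per side at ZT16 (day 1) and 3 per side at ZT40, which is ZT16 of day 2. All plants were wild-type Helianthus annuus of the inbred line HA412-HO, raised in growth chambers, moved to the field as seedlings and sampled at 2 weeks of age, with no treatment other than the sun. Peels of the first internode, holding epidermis, cortex and vascular tissue, were taken from both sides of the same plants, and each library pools the peels of 2 plants. The labels give both sides the replicate numbers 1 to 3 without saying that equal numbers mark the same stems. A library is thus a pool, and the p-values measure the spread between pools of 1 line in 1 field. In the main comparison that spread was estimated in 1 fit of all 72 field libraries, with both days in a group. Unless stated otherwise, same-numbered libraries were not treated as pairs.

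A sunflower stem bends because its sides grow at different rates, and at night the west side grows faster. Growth of a stem cell needs loosening of its wall, in which expansins and xyloglucan endotransglucosylases/hydrolases (XTHs) act, and it is promoted by the hormones auxin, brassinosteroid and gibberellin. Auxin is moved between cells by efflux carriers of the PIN and ABCB families and by influx carriers of the AUX1 family, and in cells it induces genes of the AUX/IAA, SAUR and GH3 families, of which the AUX/IAA proteins in turn repress auxin response factors (ARFs). These roles were worked out mainly in Arabidopsis. Sunflower genes are called here by their closest Arabidopsis homolog with the ending "-like", as the study assigns it, and the homologs' functions are given as background.

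The 6 west libraries held 10026072 to 25753452 estimated counts and the 6 east libraries 13795621 to 28460982. Levels are given as CPM, counts relative to the library total after TMM scaling, a scaling of library totals that uses the bulk of the genes, and they are not divided by gene length, so they compare libraries and not genes. Scaling factors of the 12 libraries lay between 1.01 and 1.06. Libraries of the same side and day correlated at r = 0.949 to 0.986 across 16421 genes (log2(CPM + 1), genes being no independent replicates). No pair of the 12 held identical values.

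Of 34315 genes tested, 1983 (5.78%) differed between the sides at ZT16 with an adjusted p (false discovery rate, FDR) under 0.05, 1177 (3.43%) higher on the west side and 806 (2.35%) higher on the east side. Most differences were small. The median fold among them was 1.37 for west and 1.33 for east genes, and 125 west and 42 east genes reached 2-fold. All 6 west libraries lay above all 6 east libraries in 598 of the 1177 west genes, against 738 (2.15%) of all genes tested, and the reverse held for 403 of the 806 east genes, against 605 (1.76%). Across all genes tested the median log2 fold change was -0.01. When same-numbered libraries were treated as pairs (a replicate block in the model), 4289 genes (12.5%) passed, 2166 higher west and 2123 higher east, and 1975 of the 1983 genes were among them.

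**Figure D1:**
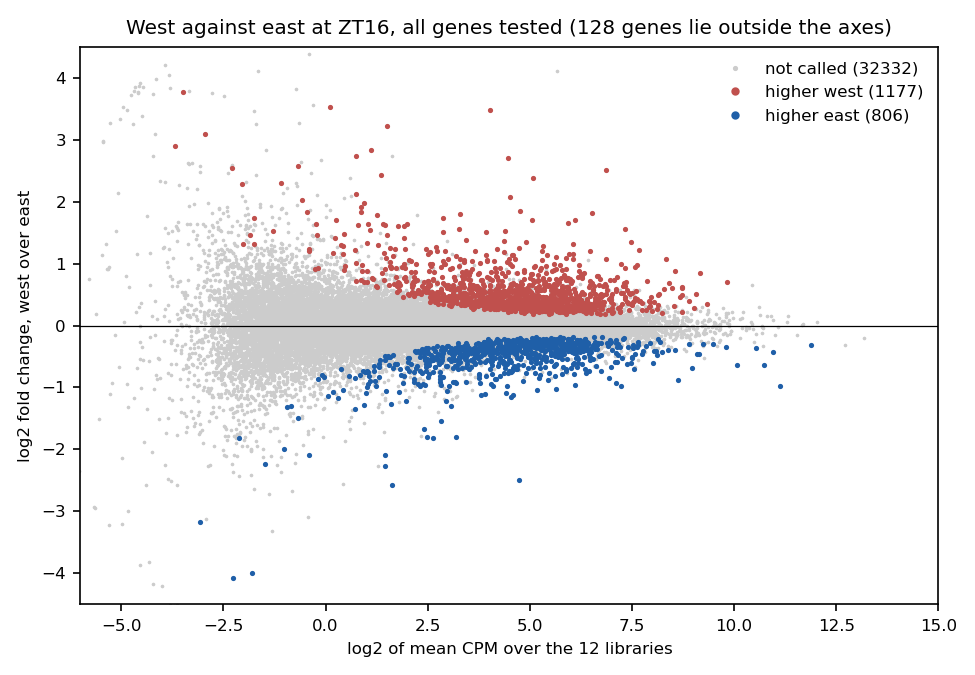
Log2 fold change of west over east at ZT16 (vertical axis) against the log2 of the mean CPM over the 12 libraries (horizontal axis), 1 point per gene tested, with 1177 genes higher west in red, 806 higher east in blue and the rest in grey. The coloured points spread to both sides of 0, most of them within 1 log2 unit, and 128 genes lie outside the axes.

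Auxin-induced repressor genes of the AUX/IAA family were higher on the west side in 8 members, among them the genes with the largest and second largest west folds under the rule for named genes. For the largest folds, that rule took only genes whose sides did not overlap. Of 20 members tested, 8 were higher west and 1 higher east (against 3.43% and 2.35% of all genes). The list median was 0.41 on the log2 scale. List members come mostly from the study's supplementary sheets, which were partly selected by side differences. Those sheets give a homolog for 10485 genes, among them 674 of the 1177 west and 417 of the 806 east genes. For this and every later list, the shares of all genes (6.31% and 6.19% with the pairing) are thus no matched yardstick. In IAA19-like Ha412HOChr16g0750271, whose Arabidopsis homolog acts in tropic bending, the 6 west libraries lay at 17.7, 25.8 and 50.6 CPM (lowest, median and highest, as in all such triplets below) and the 6 east libraries at 0.779, 2.61 and 4.43 CPM. All west libraries were thus above all east libraries, with a log2 fold change of 3.48 ± 0.32 (SE, adjusted p = 1.14e-11). The second IAA19-like gene, Ha412HOChr12g0543321, lay at 25.8, 39.4 and 53.3 CPM west and 3.03, 6.37 and 8.82 CPM east. Its sides did not overlap either, and its log2 fold change was 2.70 ± 0.34 (adjusted p = 3.31e-08). Reads that match close copies of a gene are shared out between them by the counting program, so that values of near-identical family members are less certain than those of single genes.

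IAA14-like Ha412HOChr03g0143141, whose homolog restrains lateral root formation, held 233, 253 and 284 CPM west and 72.9, 101 and 130 CPM east. The difference of 1.35 ± 0.15 on the log2 scale (adjusted p = 1.43e-09) had the same direction in 6 of 6 pairs of same-numbered libraries, as 8.73% of all genes tested had towards the west and 9.17% towards the east. Of the IAA4-like genes, Ha412HOChr01g0004341 held 15.3, 19.05 and 20.7 CPM west and 4.08, 9.44 and 13.7 CPM east (1.02 ± 0.18, adjusted p = 7.73e-05). The other, Ha412HOChr10g0435441, held 23.3, 27.7 and 37.9 CPM west and 14.8, 17.5 and 21.2 CPM east (0.67 ± 0.15, adjusted p = 0.00172). Neither gene's sides overlapped. The remaining west members were an IAA17-like gene, Ha412HOChr04g0147921, with 1.71 ± 0.34 at a low level of 1.52 to 2.22 CPM west and 0.282 to 0.995 CPM east, and a pair of IAA3-like genes. The member that went the other way was IAA27-like Ha412HOChr09g0427781, homolog of a phytochrome-associated protein, with 21.8, 26.3 and 29.2 CPM west and 31.1, 37.1 and 42.3 CPM east (-0.51 ± 0.12, adjusted p = 0.00397). One IAA3-like gene, Ha412HOChr12g0569921 (0.41 ± 0.12, adjusted p = 0.0289), did not pass when any of 6 of the 12 libraries was left out, with adjusted p up to 0.0917 (east ZT16 2, east ZT40 1 and 2, west ZT16 3, west ZT40 2 and 3).

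**Figure D2:**
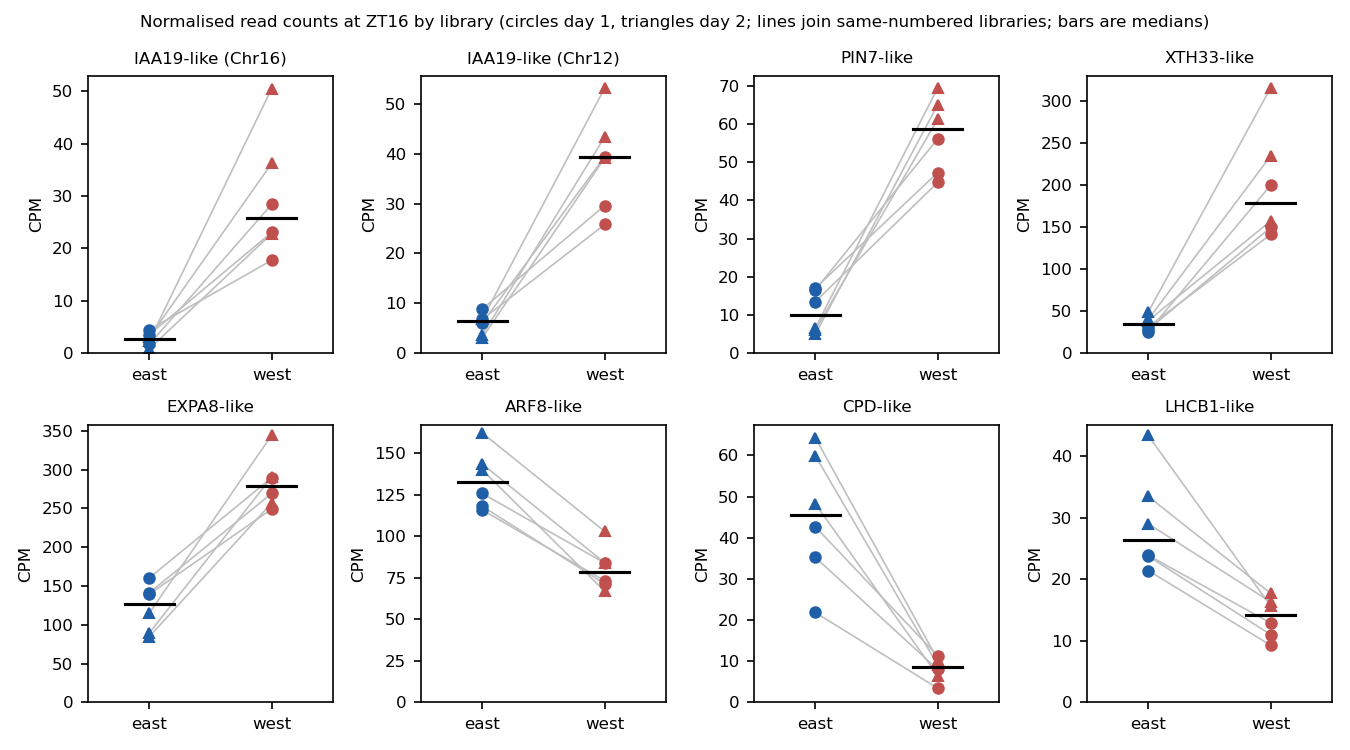
CPM of 8 genes in each of the 12 libraries (vertical axes from 0), east in blue and west in red, circles for day 1 and triangles for day 2, grey lines joining same-numbered libraries and black bars at the medians. In IAA19-like, PIN7-like, XTH33-like and EXPA8-like every line rises from east to west, and in ARF8-like, CPD-like and LHCB1-like every line falls, with no overlap of the sides in any panel. Except for EXPA8-like and ARF8-like, the lack of overlap was a condition for choosing the gene.

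In the lists of the other auxin-induced families, fewer genes were higher west. Of 18 SAUR genes, small proteins that promote cell expansion, 5 were higher west and 0 higher east (edgeR, with 1 higher east at an unadjusted p under 0.05, 1 by DESeq2 and 1 with the pairing), and the list's median was 0.27. SAUR12-like Ha412HOChr07g0303111 lay at 2.96, 4.16 and 5.25 CPM west and 0.776, 1.37 and 1.75 CPM east (1.64 ± 0.30, adjusted p = 0.000112), with no overlap. The SAUR count was 3 without any 1 of the libraries east ZT40 1, 2 or 3, west ZT16 2 or 3, or west ZT40 1 or 2. Of 6 GH3 genes 1 was higher west, the JAR1-like gene Ha412HOChr06g0253411 (12.1, 15.7 and 19.2 CPM west, 7.05, 11.1 and 12.5 CPM east, 0.61 ± 0.15, adjusted p = 0.005). Its homolog conjugates jasmonate rather than auxin.

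Among the ARFs, transcription factors that AUX/IAA proteins hold in check, ARF8-like Ha412HOChr15g0717941 was higher on the east side, at 116, 133 and 162 CPM against 66.7, 78.5 and 103 CPM west (-0.74 ± 0.10, adjusted p = 2.18e-07). In Arabidopsis ARF8 limits hypocotyl elongation. ARF16-like Ha412HOChr02g0082371 was higher west, at 17.5, 19.3 and 35.6 CPM against 7.65, 11.7 and 15.1 CPM (1.04 ± 0.23, adjusted p = 0.00143). An ARF19-like gene, Ha412HOChr09g0384131, was also higher west (0.74 ± 0.18, adjusted p = 0.00514). A second ARF19-like gene, Ha412HOChr03g0103791, held 24.8, 30.1 and 34.6 CPM west and 15.1, 22.8 and 27.5 CPM east, a log2 fold change of 0.42 ± 0.14 that did not pass without the pairing (adjusted p = 0.0565) and passed with it (adjusted p = 0.00295). In all, 2 of 19 ARFs were higher west and 1 higher east (against 3.43% and 2.35% of all genes), and the list's median was -0.02. With the pairing the counts were 3 and 2 (against 6.31% and 6.19%).

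Auxin transport genes moved in both directions. Of 23 members, 2 were higher west and 3 higher east (5 and 5 with the pairing, against 6.31% and 6.19% of all genes). PIN7-like Ha412HOChr01g0035481, an efflux carrier, lay at 44.7, 58.8 and 69.5 CPM west and 4.87, 9.96 and 17.0 CPM east. The sides were far apart, with a log2 fold change of 2.39 ± 0.25 (adjusted p = 5.24e-10). ABCB19-like Ha412HOChr15g0734111, whose homolog carries auxin down the stem, was at 98.2, 119 and 134 CPM west and 56.5, 74.0 and 96.5 CPM east (0.64 ± 0.17, adjusted p = 0.0119). Both influx carrier genes that passed were higher east. The remaining member of the 3 higher east is not named here, so the named genes do not show whether all calls divide by carrier type. AUX1-like Ha412HOChr06g0273181 held 35.3, 40.8 and 51.3 CPM east against 22.9, 27.8 and 36.3 CPM west (-0.56 ± 0.13, adjusted p = 0.00324), and AUX1-like Ha412HOChr01g0010981 held 194, 204 and 227 CPM against 147, 162 and 176 CPM (-0.36 ± 0.10, adjusted p = 0.014).

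Genes of the NPH3 family, which includes adaptor proteins of phototropin signaling and of PIN localization, were higher west in 5 and higher east in 1 of 22 members (6 and 2 with the pairing), with a median of 0.07. NPY8-like Ha412HOChr12g0580251 was at 60.9, 63.5 and 86.0 CPM west and 45.5, 47.8 and 57.1 CPM east (0.41 ± 0.10, adjusted p = 0.00744). The member with the smallest p, Ha412HOChr15g0736141, was at 33.9, 40.2 and 46.4 CPM west and 23.9, 27.5 and 34.4 CPM east (0.45 ± 0.11, adjusted p = 0.00443). The west count was 3 without east ZT40 2 or east ZT40 3. The east member, Ha412HOChr15g0717121 (-0.32 ± 0.09, adjusted p = 0.0242), did not pass without east ZT16 1, east ZT40 1, west ZT16 2 or west ZT40 3 (adjusted p 0.055 to 0.0926).

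Genes of brassinosteroid synthesis, breakdown and response differed in both directions. Of 40 members, 6 were higher west and 2 higher east (against 3.43% and 2.35% of all genes), and the median was 0.00. With the pairing the counts were 7 and 4 (against 6.31% and 6.19%). The gene with the largest east fold change under the rule, CPD-like Ha412HOChr15g0744561, encodes the homolog of a cytochrome P450 of brassinosteroid synthesis. It lay at 21.9, 45.5 and 64.4 CPM east and 3.44, 8.53 and 11.3 CPM west, so the lowest east library was above the highest west one. Its log2 fold change was -2.50 ± 0.30 (adjusted p = 9.38e-09). The other east member, Ha412HOChr08g0344281, was also CPD-like (-0.38, adjusted p = 0.0131) and did not pass without west ZT16 2 (0.0545). Throughout, CPD-like without an identifier means Ha412HOChr15g0744561. DWF1-like Ha412HOChr06g0255641, a gene of sterol and brassinosteroid synthesis, went the other way, at 4.18, 6.18 and 8.19 CPM west and 1.37, 2.09 and 2.47 CPM east (1.63 ± 0.22, adjusted p = 2.83e-07).

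BAS1-like Ha412HOChr05g0215071, homolog of an enzyme that inactivates brassinosteroids, was at 1.52, 2.80 and 3.91 CPM west and 0.275, 0.535 and 1.25 CPM east (2.13 ± 0.35, adjusted p = 1.52e-05). BES1-like Ha412HOChr16g0760541, homolog of a transcription factor of the response, was at 39.8, 50.8 and 57.5 CPM west and 20.4, 28.4 and 40.02 CPM east (0.73 ± 0.15, adjusted p = 0.00093). A pair of genes like PRE1, a small protein that promotes elongation, was also higher west, with log2 fold changes of 1.24 ± 0.31 in Ha412HOChr09g0413721 and 2.02 ± 0.54 in Ha412HOChr15g0734161. Both were read at low levels, up to 6.005 and 1.28 CPM west. BZR1-like Ha412HOChr14g0662481 held 34.0, 47.0 and 51.7 CPM west and 48.6, 55.3 and 59.8 CPM east (-0.25 ± 0.12, adjusted p = 0.275), and it passed with the pairing (adjusted p = 0.0456). BIM1-like Ha412HOChr02g0064141 held 13.2 to 14.3 CPM west and 13.2 to 16.3 CPM east and did not pass.

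Of 15 gibberellin genes, 1 was higher on each side, against 3.43% (west) and 2.35% (east) of all genes. With the pairing it was 2 on each, against 6.31% and 6.19%. GA2OX2-like Ha412HOChr10g0463601, homolog of an enzyme that inactivates gibberellins, was at 6.28, 8.47 and 11.6 CPM east and 0.790, 1.94 and 5.64 CPM west (-1.80 ± 0.34, adjusted p = 0.000227), with no overlap. GAI-like Ha412HOChr10g0475571, homolog of a repressor of the response, was at 30.6, 33.7 and 36.4 CPM west and 17.8, 22.8 and 32.02 CPM east (0.53 ± 0.17, adjusted p = 0.0439). Its call held without east ZT16 2 or west ZT16 3 and was lost without any other 1 of the libraries (adjusted p 0.053 to 0.125). Of 23 ethylene genes, 1 was also higher on each side (2 on each with the pairing), against the same shares of all genes. EIN3-like Ha412HOChr14g0649831, a transcription factor of the response, was higher east, at 69.6, 77.4 and 87.6 CPM against 52.4, 60.4 and 68.4 CPM (-0.36 ± 0.07, adjusted p = 0.000431). Another EIN3-like gene, Ha412HOChr15g0726161, held 92.3 to 139 CPM west and 91.7 to 115 CPM east (0.19 ± 0.12, adjusted p = 0.478, with the pairing 0.0355). The receptor gene ETR2-like Ha412HOChr03g0142771 was higher west (0.46 ± 0.15, adjusted p = 0.0468), a call that held without east ZT40 1 or west ZT16 3 and was lost without any other library (adjusted p 0.0502 to 0.162).

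Of the wall loosening genes, XTHs that passed without the pairing were higher west with 1 exception, and expansins passed in both directions. Of 23 XTH genes, whose products cut and rejoin the xyloglucan chains between cellulose fibrils, 7 were higher west and 1 higher east (9 and 3 with the pairing), and the median log2 fold change was 0.75. XTH33-like Ha412HOChr17g0856591 lay at 141, 179 and 316 CPM west and 25.3, 34.7 and 48.7 CPM east (2.51 ± 0.33, adjusted p = 1.65e-07). XTH16-like Ha412HOChr14g0656311 lay at 26.9, 34.8 and 51.6 CPM west and 7.01, 8.41 and 11.3 CPM east (2.08 ± 0.28, adjusted p = 2.37e-07). In both, and in XTH8-like Ha412HOChr01g0007471 (130, 156 and 184 CPM west, 63.9, 75.5 and 86.0 CPM east, 1.08 ± 0.13), the sides did not overlap. XTH23-like Ha412HOChr05g0208181 (1.70 ± 0.27) and XTH9-like Ha412HOChr15g0715451 (1.36 ± 0.22) had the same pattern, and XTH5-like Ha412HOChr17g0814461 was 0.57 ± 0.14 higher with overlapping sides. The XTH15-like gene Ha412HOChr11g0492571 (1.21 ± 0.36, adjusted p = 0.0293) was at 1.87 without east ZT40 3 and did not pass without east ZT16 1, 2 or 3, east ZT40 1, or west ZT40 2 or 3 (adjusted p 0.0591 to 0.0971).

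The XTH gene that was higher east without the pairing was XTH7-like Ha412HOChr12g0567061, at 2420, 2942 and 3703 CPM east and 1308, 1513 and 1676 CPM west (-0.98 ± 0.13, adjusted p = 2.32e-07). It took the larger part of the reads of the family, and the summed level of the list was accordingly lower west (2167 to 2622 CPM) than east (2983 to 4321 CPM), in 6 of 6 pairs, although more members were higher west.

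Expansins, proteins that loosen the wall in acid, were higher west in 3 and higher east in 3 of 18 members (4 and 6 with the pairing), with a median of 0.15. Their summed level was higher west in 6 of 6 pairs (2541 to 2840 CPM west, 2024 to 2425 CPM east). EXPA8-like Ha412HOChr14g0689301 was at 249, 279 and 344 CPM west and 84.7, 127 and 160 CPM east (1.22 ± 0.17, adjusted p = 6.93e-07). The expansin-like gene EXPL1-like Ha412HOChr17g0838151 was at 36.04, 52.2 and 67.9 CPM west and 9.87, 15.02 and 19.9 CPM east (1.71 ± 0.36, adjusted p = 0.000955). Neither gene's sides overlapped. EXPB3-like Ha412HOChr17g0835161 was higher east, at 168, 216 and 259 CPM against 121, 144 and 178 CPM (-0.52 ± 0.12, adjusted p = 0.00315). A second EXPA8-like gene, Ha412HOChr10g0440761, was higher east (-0.90, adjusted p = 0.0305). EXPA1-like genes passed on both sides, Ha412HOChr04g0165901 higher west (0.77, adjusted p = 0.0273) and Ha412HOChr17g0857711 higher east (-0.47, adjusted p = 0.032). Each of these 3 calls was lost when certain single libraries were left out (adjusted p up to 0.103, 0.114 and 0.0921). Throughout, EXPA8-like without an identifier means Ha412HOChr14g0689301. The east count was 1 without east ZT16 3 or without west ZT40 3.

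In the cellulose synthase, pectin and fasciclin-like lists, genes that passed without the pairing were all higher west. Xylan genes were counted with the xylem markers below, where calls went in both directions. Of 30 genes of the cellulose synthase family 5 were higher west and 0 higher east (edgeR, 10 and 1 with the pairing, 1 east at an unadjusted p under 0.05 and 0 by DESeq2), with CSLC4-like Ha412HOChr15g0707661, homolog of a synthase of the xyloglucan backbone, at 19.6, 23.0 and 26.2 CPM west and 10.8, 12.8 and 16.3 CPM east (0.81 ± 0.13, adjusted p = 2.3e-05). Of 75 genes for pectin synthesis and modification 8 were higher west and 0 higher east (edgeR, 17 and 3 with the pairing, 3 east at an unadjusted p under 0.05 and 1 by DESeq2). Their log2 fold changes lay between 0.42 and 0.72. GAUT4-like Ha412HOChr17g0839321, homolog of a galacturonosyltransferase of pectin synthesis, was at 101, 111 and 128 CPM west and 73.4, 78.5 and 87.7 CPM east (0.51 ± 0.07, adjusted p = 1.87e-07). FLA9-like Ha412HOChr17g0836681, a fasciclin-like arabinogalactan protein of the wall, was at 212, 256 and 318 CPM west and 98.9, 136 and 162 CPM east (0.97 ± 0.19, adjusted p = 0.000433), 1 of 8 such genes to pass (3 with the pairing and 3 by DESeq2, all higher west).

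Of 12 aquaporin genes, channels for water entry into expanding cells, 0 were higher west (edgeR, also 0 at an unadjusted p under 0.05 and by DESeq2) and 2 higher east (4 with the pairing), and 11 of the 12 had a log2 fold change below 0, with a median of -0.32. PIP2;4-like Ha412HOChr07g0311551 was at 15.2, 19.6 and 22.6 CPM east and 4.39, 8.25 and 12.4 CPM west (-1.13 ± 0.22, adjusted p = 0.000337). None of 9 genes for plasma membrane proton pumps, which acidify the wall, passed (edgeR, log2 fold changes from -0.27 to 0.18), with 1 in each direction at an unadjusted p under 0.05, 1 east by DESeq2 and 1 in each direction with the pairing. LNG1-like Ha412HOChr17g0822481, whose homolog promotes lengthwise cell elongation, was at 99.4, 111 and 116 CPM west and 53.3, 67.0 and 93.7 CPM east (0.66 ± 0.14, adjusted p = 0.000955).

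Photosynthesis genes that passed were higher on the east side, with 1 exception in chlorophyll synthesis. All 10 light harvesting genes, which encode the antenna proteins of the photosystems, had a log2 fold change below 0, and 4 of them passed (edgeR, 0 higher west and 4 higher east, 7 east with the pairing). In LHCB1-like Ha412HOChr04g0187831 the east libraries held 21.4, 26.5 and 43.4 CPM and the west libraries 9.28, 14.3 and 17.7 CPM (-1.08 ± 0.21, adjusted p = 0.000386). LHCA2-like Ha412HOChr06g0260991 held 71.97, 87.0 and 94.4 CPM east and 35.1, 48.9 and 67.4 CPM west (-0.79 ± 0.16, adjusted p = 0.000412). Summed over the list, the east libraries (342 to 450 CPM) lay above the west libraries (238 to 332 CPM).

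Of 27 photosystem subunit genes 6 were higher east and 0 higher west (11 and 0 with the pairing). In both lists 0 were higher west at an unadjusted p under 0.05 or by DESeq2. PSAE-2-like Ha412HOChr06g0281851 was at 86.2, 103 and 119 CPM east and 49.7, 61.6 and 79.0 CPM west (-0.70 ± 0.14, adjusted p = 0.00053). The east count was 2 without east ZT16 1, east ZT40 3 or west ZT40 3, and 3 without east ZT16 2 or 3, east ZT40 1 or west ZT16 2. In chlorophyll synthesis 3 of 12 genes were higher east and 1 higher west (6 and 1 with the pairing, 5 and 1 by DESeq2). GUN5-like Ha412HOChr10g0446421, a magnesium chelatase subunit, was at 36.5, 46.1 and 56.6 CPM east and 24.4, 31.1 and 34.9 CPM west (-0.60 ± 0.16, adjusted p = 0.0136), and missed the threshold without east ZT16 1 (0.0508) or west ZT40 3 (0.0507). HEMD-like Ha412HOChr09g0417141, an earlier step shared with heme synthesis, was higher west (0.66 ± 0.13, adjusted p = 0.000502). The east count was 1 without east ZT16 1 or east ZT40 3 and 0 without west ZT40 3. Green cortex cells carry these transcripts, and in peels of mixed tissue fewer cells of a type and less RNA per cell cannot be told apart.

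Autophagy genes, which recycle cell contents, were also higher east where they passed, except for 1. Of 14 members 5 were higher east and 1 higher west (8 and 1 with the pairing), and 13 of the 14 had a log2 fold change below 0, with a median of -0.21. ATG18F-like Ha412HOChr08g0362171 was at 88.1, 92.9 and 106 CPM east and 70.5, 75.0 and 87.7 CPM west (-0.28 ± 0.07, adjusted p = 0.00514). The west member, Ha412HOChr09g0393841, is known only by a domain of autophagy-related protein 27 (0.75 ± 0.13, adjusted p = 8.77e-05). The east count was 1 without west ZT40 3, 2 without east ZT16 1, and 3 without east ZT16 2 or 3, west ZT16 2 or west ZT40 1 or 2.

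In genes that respond to sugar or darkness, 1 of 24 was higher west and 2 higher east (against 3.43% and 2.35% of all genes). With the pairing the counts were 6 and 5 (against 6.31% and 6.19%). TPS11-like Ha412HOChr06g0269221, of the trehalose phosphate synthase family, was at 11.2, 13.8 and 17.0 CPM east and 5.70, 7.48 and 9.12 CPM west (-0.91 ± 0.19, adjusted p = 0.000772). TPS7-like Ha412HOChr16g0783731, of the same family, was higher west (0.37 ± 0.11, adjusted p = 0.0361). It did not pass without east ZT16 1 or 3, east ZT40 1, 2 or 3, west ZT16 2 or 3, or west ZT40 2 (adjusted p 0.0557 to 0.0931).

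The other genes with the largest folds had varied roles. On the west side these were ENODL8-like Ha412HOChr03g0135171, an early nodulin-like protein, at 117, 143 and 168 CPM against 33.6, 39.9 and 47.7 CPM (1.83 ± 0.17, adjusted p = 1.34e-11), and a glycosyltransferase of family 61, Ha412HOChr10g0446871, at 31.7, 42.0 and 57.2 CPM against 10.2, 12.1 and 12.8 CPM (1.86 ± 0.19, adjusted p = 4e-10). On the east side a class-II DAHP synthetase gene, Ha412HOChr04g0165241, for the entry step of aromatic amino acid synthesis, was at 26.5, 30.4 and 41.6 CPM against 9.03, 14.2 and 20.7 CPM (-1.15 ± 0.16, adjusted p = 4.94e-07). EGL3-like Ha412HOChr06g0247621, a regulator of flavonoids and hairs in Arabidopsis, was at 14.4, 20.7 and 28.2 CPM against 7.69, 9.54 and 11.1 CPM (-1.11 ± 0.24, adjusted p = 0.0013). The potassium transporter gene KUP6-like Ha412HOChr12g0557701 was at 52.9, 66.2 and 88.9 CPM against 25.3, 33.1 and 39.0 CPM (-1.02 ± 0.15, adjusted p = 3.19e-06). A major facilitator superfamily transporter gene, Ha412HOChr16g0750711, was at 172, 203 and 214 CPM against 64.4, 92.9 and 140 CPM (-0.98 ± 0.18, adjusted p = 7.92e-05). The sides did not overlap in any of these genes, as the rule that chose them required.

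Of the growth machinery apart from the wall, ribosomal protein genes and genes for cyclins and replication were counted. Of 215 ribosomal protein genes 4 were higher west and 1 higher east (against 3.43% and 2.35% of all genes), and the median was 0.07. With the pairing the counts were 32 and 3 (against 6.31% and 6.19%). The members with the smallest p were NFD1-like Ha412HOChr12g0546161, for a mitochondrial ribosomal protein (0.39 ± 0.09, adjusted p = 0.00394), and an L18ae gene, Ha412HOChr11g0487571 (-0.31 ± 0.09, adjusted p = 0.0194), which did not pass without east ZT40 3 (0.0654) or west ZT40 3 (0.089). The west count ranged from 1 to 11 when 1 library was left out: it was 1 without east ZT16 1 or 2, east ZT40 1 or west ZT40 3, 2 without west ZT16 3 or west ZT40 2, 10 without west ZT16 1 and 11 without east ZT40 2 or west ZT16 2.

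Of 39 genes for cyclins and replication 2 were higher west and 3 higher east (against 3.43% and 2.35% of all genes). The counts were 2 and 7 with the pairing (against 6.31% and 6.19%) and 2 and 6 by DESeq2. CYCD1;1-like Ha412HOChr12g0578891 was at 94.5, 103 and 120 CPM west and 68.7, 86.7 and 96.5 CPM east (0.33 ± 0.08, adjusted p = 0.00276). The east member with the smallest p, MRH2-like Ha412HOChr08g0339761 (-0.67 ± 0.09, adjusted p = 4.19e-07), is homologous to a kinesin of root hairs and not to a cyclin. Its neighbour in the numbering, Ha412HOChr08g0339771, has the same homolog (-0.63 ± 0.09). The remaining east member was the cyclin gene CYCB1;2-like Ha412HOChr01g0011571 (-0.44, adjusted p = 0.0487). It did not pass without east ZT16 1, 2 or 3, east ZT40 3, west ZT16 1 or 3, or west ZT40 1 or 3 (adjusted p 0.0622 to 0.2).

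Clock genes did not pass at ZT16. Of 20 members of the core clock list 0 differed by edgeR or DESeq2 (1 west and 3 east at an unadjusted p under 0.05), while 1 passed with the pairing, a PRR7-like gene, Ha412HOChr01g0042171, with 19.99, 22.0 and 29.2 CPM west and 16.1, 19.3 and 23.6 CPM east (0.26 ± 0.09, adjusted p = 0.0799, with the pairing 0.0286). TOC1-like Ha412HOChr02g0065721 held 15.01, 17.8 and 27.3 CPM west and 13.9, 20.02 and 28.1 CPM east (-0.08 ± 0.15). LHY-like Ha412HOChr15g0736201, a morning gene, held 0.564 to 2.14 CPM west and 0.635 to 1.91 CPM east (-0.10 ± 0.31). The ELF3-like genes held 13.1 to 17.2 against 16.6 to 18.3 CPM in Ha412HOChr02g0074131 and 42.5 to 55.7 against 51.7 to 55.5 CPM in Ha412HOChr07g0293611. The log2 fold changes of the list lay between -0.55 and 0.43. Among its genes named by the study, they were -0.29 ± 0.23 in RVE8-like Ha412HOChr07g0311811, -0.00 ± 0.15 in RVE8-like Ha412HOChr14g0679651, -0.18 ± 0.13 in RVE6-like Ha412HOChr16g0792081 and -0.13 ± 0.12 in RVE6-like Ha412HOChr09g0395701. They were -0.25 ± 0.21 in PRR3-like Ha412HOChr14g0684881, -0.04 ± 0.16 in PRR3-like Ha412HOChr07g0319851, -0.07 ± 0.19 in PRR5-like Ha412HOChr08g0350221, 0.23 ± 0.20 in PRR7-like Ha412HOChr08g0341571 and 0.13 ± 0.13 in LUX-like Ha412HOChr08g0371471. None of these passed, and their sides overlapped.

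The remaining genes whose IDs the study gives did not pass either. The potassium channel gene KAT1-like Ha412HOChr04g0179931 held 19.4, 22.9 and 31.4 CPM west and 16.1, 17.9 and 20.3 CPM east (0.36 ± 0.15, adjusted p = 0.147, with the pairing 0.0363). The photoreceptor gene PHYB-like Ha412HOChr02g0079361 was 0.35 ± 0.20 on the log2 scale (adjusted p = 0.374), the ribosomal protein gene S15a-like Ha412HOChr05g0204731 was 0.12 ± 0.14, HB2-like Ha412HOChr13g0623611 was 0.05 ± 0.13 and EBF1-like Ha412HOChr01g0047431 was -0.17 ± 0.26. The reference genes UBQ (Ha412HOChr06g0274091, 0.04 ± 0.07) and EF (Ha412HOChr11g0495951, -0.04 ± 0.10) differed by less than their standard errors. None of 32 heat shock, 11 flavonoid or 8 ELIP genes (light-stress proteins) passed by edgeR. At an unadjusted p under 0.05, 3 heat shock genes and 1 ELIP gene were higher west and 1 heat shock gene higher east, DESeq2 called 1 heat shock gene higher west, and with the pairing 2 heat shock genes were higher west and 1 heat shock gene and 1 flavonoid gene higher east.

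The peels were checked against markers of their tissues. All 4 marker lists were read in the libraries, with 0 of the 50 epidermis, 11 phloem, 28 xylem and 3 guard cell genes tested at 0 in all 12. Epidermis genes, for wax and cutin synthesis, were higher west in 9 and higher east in 0 of 50 (edgeR, 17 and 1 with the pairing, 1 east at an unadjusted p under 0.05 and 0 by DESeq2), with a median of 0.27. KCS12-like Ha412HOChr01g0016111, for fatty acid elongation, was at 2.60, 2.87 and 4.61 CPM west and 0.532, 0.943 and 1.54 CPM east (1.65 ± 0.31, adjusted p = 0.000164). The summed level of the epidermis list overlapped between the sides (8057 to 9081 CPM west, 7087 to 9926 CPM east). Its part in the west calls of the auxin and wall genes was not tested.

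Of the vascular markers, 1 of 11 phloem genes was higher west, BRX-like Ha412HOChr07g0294971 at 2.18, 3.52 and 6.21 CPM against 0.755, 1.19 and 1.201 CPM (1.78 ± 0.29, adjusted p = 1.8e-05). Of 28 xylem genes 2 were higher west and 1 higher east (against 3.43% and 2.35% of all genes). FRA8-like Ha412HOChr02g0086981, of xylan synthesis, was at 181, 195 and 220 CPM west and 93.2, 132 and 151 CPM east (0.64 ± 0.14, adjusted p = 0.0018). IRX9-L-like Ha412HOChr12g0570981 was higher east (-0.48 ± 0.10, adjusted p = 0.00158). The other west member, Ha412HOChr10g0430551, was also IRX9-L-like (0.28, adjusted p = 0.0305). It did not pass without east ZT40 1, 2 or 3, west ZT16 2 or 3, or west ZT40 1 (adjusted p 0.0634 to 0.125). The summed levels of both lists overlapped, at 335 to 521 CPM west and 382 to 511 CPM east for phloem and 405 to 557 CPM west and 328 to 491 CPM east for xylem. Within pairs, however, the xylem sum was higher west in 6 of 6 and the phloem sum in 1 of 6, while the epidermis sum was higher west in 4 of 6. FRA8-like alone held 181 to 220 CPM of the xylem sum west and 93.2 to 151 CPM east. Most xylem members went the other way, with 9 of 28 above 0 and a list median of -0.10. In the phloem list 3 of 11 were above 0, with a median of -0.15. Of the 3 guard cell genes, 0 passed by edgeR, and 1 was higher west with the pairing, by DESeq2 and at an unadjusted p under 0.05. Their summed level was higher west in 6 of 6 pairs (22.6 to 33.8 CPM west, 20.1 to 22.7 CPM east). The part of these shifts in the other side differences was not tested.

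The nights of the 2 days gave mostly the same directions. With 3 libraries per side, 347 genes (1.01%) passed on day 1, 221 west and 126 east, and 1151 (3.35%) on day 2, 706 west (2.06%) and 445 east (1.3%). Of the 221 west genes of day 1, 219 had the same direction on day 2 and 181 passed there. Of the 126 east genes, 126 had the same direction and 84 passed. In the other direction 0 passed. A test of the difference between the days called 0 genes (edgeR, 784 at an unadjusted p under 0.05, where 1715.8 of the 34315 tests are expected, smallest adjusted p = 0.121) and 1 with the pairing. In data simulated for this test, 52% of genes with a 2-fold difference between days and 90% with a 4-fold difference were recovered, and smaller differences were not simulated. The simulated libraries were independent, without pairs and without other differences between days. Changes were set only in genes above a minimum mean level. These recovered shares need not hold in the measured data.

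Several of the largest folds were larger on day 2, a difference that passed for 0 genes without the pairing. The 1 gene that passed with the pairing was more west on day 2. PIN7-like Ha412HOChr01g0035481 had a log2 fold change of 1.66 on day 1 and 3.49 on day 2. Its difference between days of 1.83 had the smallest adjusted p of that edgeR test (0.121). The values of the 2 days were 2.84 and 4.17 in IAA19-like Ha412HOChr16g0750271. In ARF16-like Ha412HOChr02g0082371 they were 0.35 (adjusted p = 0.76) and 1.80 (adjusted p = 7.67e-06). XTH33-like Ha412HOChr17g0856591 (2.55 and 2.48) and LHCB1-like Ha412HOChr04g0187831 (-1.06 and -1.09) were alike on both days. Of the 55 named genes past the threshold with both days, 26 passed on day 1 and 47 on day 2.

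**Figure D3:**
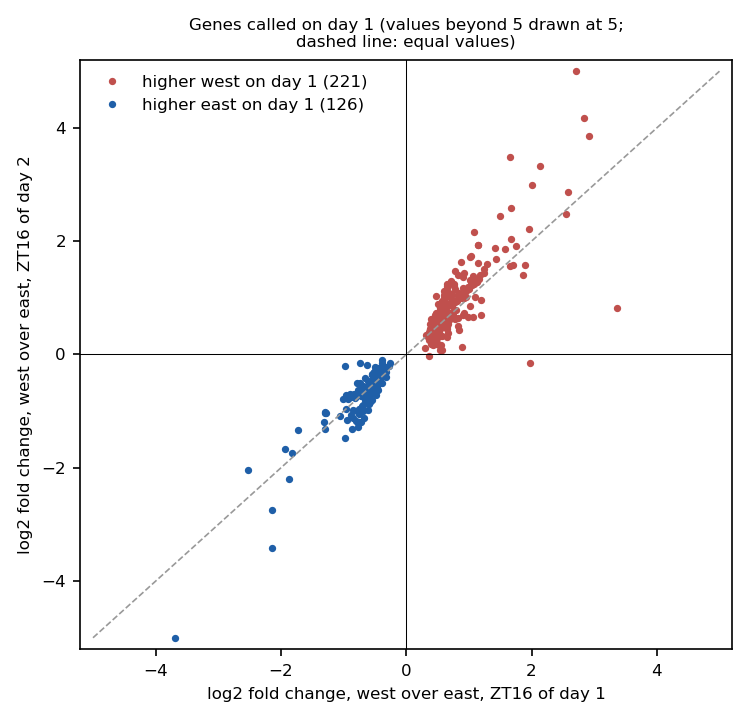
Log2 fold change of west over east on day 2 (vertical axis) against day 1 (horizontal axis) for the 347 genes that passed on day 1, 221 higher west in red and 126 higher east in blue, with the dashed line marking equal values. All but 2 of the points lie in the quadrants of equal direction. The genes were chosen by the values of the horizontal axis.

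The side difference was then compared with that of other times of day. More genes differed between the sides at ZT16 (5.78%) than at ZT20 (1216, 3.54%), ZT12 (613, 1.79%), ZT8 (540, 1.57%), ZT4 (52, 0.152%) and ZT0 (19, 0.0554%), each with 6 libraries per side. By direction, the shares higher west and higher east were 2.63% and 0.918% at ZT20, 0.635% and 1.15% at ZT12, 0.708% and 0.866% at ZT8, 0.0233% and 0.128% at ZT4 and 0.0321% and 0.0233% at ZT0. Of the 1177 west genes of ZT16, 262 (22.3%) were also higher west at ZT20, where they made up 29.1% of the 901 west genes, and 6 were higher east there. At ZT8, by day, 147 of them were higher east and 1 higher west. Of the 806 east genes, 91 (11.3%) were also higher east at ZT20, 28.9% of its 315 east genes, and 0 were higher west. At ZT8 25 of them were higher east and 91 higher west.

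Tested directly, the side difference at ZT16 differed from that at ZT20, 4 h later, in 134 genes (0.39%), in 105 (0.306%) towards the west and in 29 (0.0845%) towards the east. With the pairing it differed in 707 genes, 316 towards the west and 391 towards the east, so the larger share towards the west was not kept. Of the 134, 99 were west genes and 16 east genes of ZT16. PIN7-like Ha412HOChr01g0035481 changed from 2.39 at ZT16 to a log2 fold change of -0.21 (adjusted p = 0.789) at ZT20, a difference of 2.60 (adjusted p = 3.76e-06). For ARF16-like Ha412HOChr02g0082371 the difference was 2.08 (adjusted p = 0.000123), for IAA14-like Ha412HOChr03g0143141 1.01 (adjusted p = 0.00483) and for EXPA8-like Ha412HOChr14g0689301 1.30 (adjusted p = 0.00198). CPD-like Ha412HOChr15g0744561 differed by -1.83 (adjusted p = 0.0113). Of the 20 AUX/IAA genes 5 were more west at ZT16 than at ZT20 and 0 less. At ZT12, 10 of them were higher west and 0 higher east with a median of 0.485, against 8, 1 and 0.412 at ZT16, and the difference between these times was not tested. Of the 23 XTH genes 0 differed in either direction without the pairing, although their median was 0.75 at ZT16 and -0.01 at ZT20. At ZT20, 5 of them were higher west and 2 higher east. In simulated independent libraries this test recovered 44% of 1.5-fold and 80% of 2-fold differences. The 0 calls thus do not show that the XTH side differences were equal at both times.

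Against ZT4, a morning time when the stem bends to the west, 624 genes (1.82%) differed. Of these, 419 (1.22%) were more west and 205 (0.597%) more east at ZT16. With the pairing 1835 genes differed, 1029 more west and 806 more east. Of the AUX/IAA genes 9 of 20, of the XTH genes 6 of 23, of the pectin genes 6 of 75 and of the expansins 4 of 18 were more west at ZT16, and 1 expansin was less. XTH33-like Ha412HOChr17g0856591 differed by 3.16 (adjusted p = 9.08e-06), PIN7-like Ha412HOChr01g0035481 by 3.50 (adjusted p = 4.25e-10) and KUP6-like Ha412HOChr12g0557701 by -1.57 (adjusted p = 2.06e-06). Of 39 genes for cyclins and replication 13 were more east at ZT16 than at ZT4 and 0 more west.

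**Figure D4:**
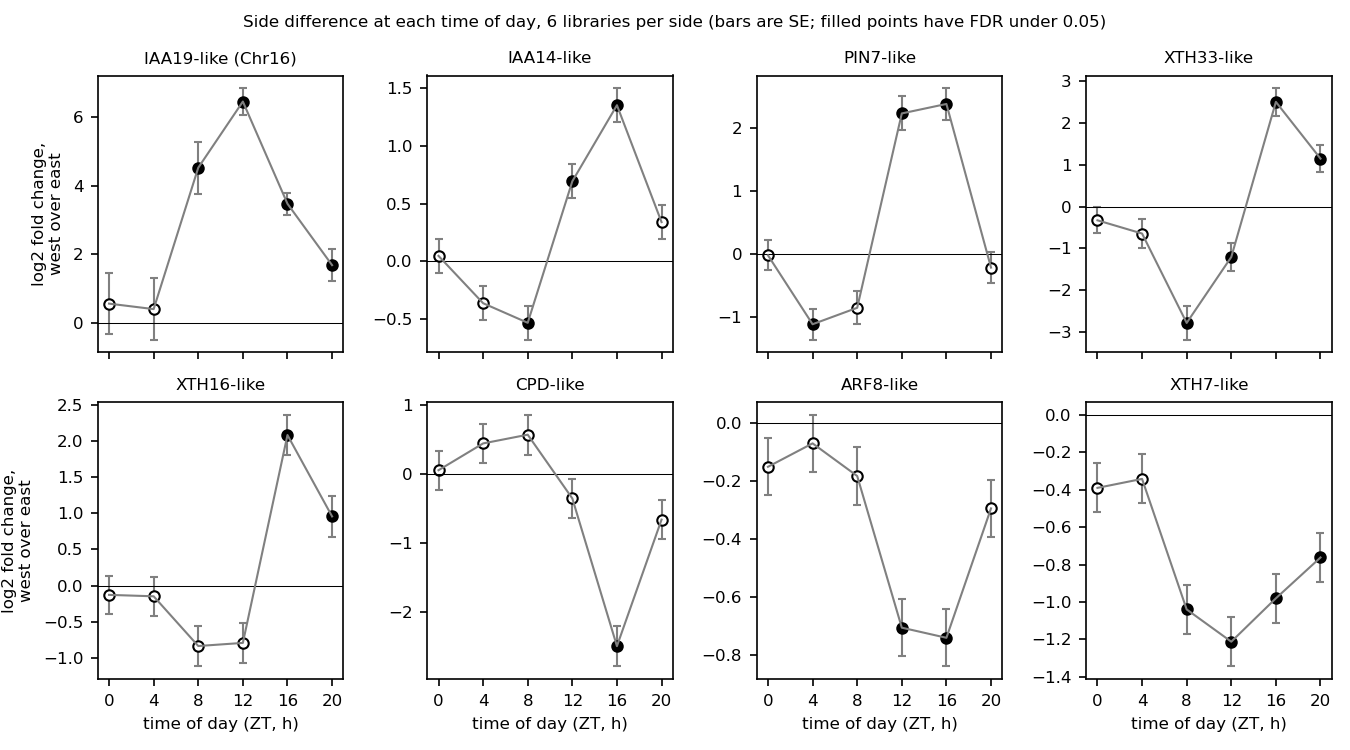
Log2 fold change of west over east (vertical axes, bars are SE, 6 libraries per side) of 8 genes at the 6 times of day in hours from dawn (horizontal axes), with filled points where the adjusted p is under 0.05. XTH33-like is below 0 at ZT8 and ZT12 and at 2.51 at ZT16, PIN7-like is high at ZT12 and ZT16, and XTH7-like is below 0 at every time.

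Over the day, the genes with the largest differences followed different courses. IAA19-like Ha412HOChr16g0750271 was higher west at ZT8 (4.53 on the log2 scale), ZT12 (6.46), ZT16 (3.48) and ZT20 (1.69), whereas XTH33-like Ha412HOChr17g0856591 was higher east at ZT8 and ZT12 and higher west at ZT16 and ZT20. PIN7-like Ha412HOChr01g0035481 was higher east at ZT4 and higher west at ZT12 and ZT16. CPD-like Ha412HOChr15g0744561 passed at ZT16 alone among the 6 times. XTH7-like Ha412HOChr12g0567061 was higher east at ZT8, ZT12, ZT16 and ZT20.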

How the data were processed

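PolyA RNA of field stem peels was sequenced by the authors, quality-filtered and assigned with Salmon 1.4.0 to transcripts extracted with Cufflinks 2.2.1 from the Ha412HO annotation, and the deposited values used here are estimated counts per gene, not normalized. These need not be whole and were rounded. Normalized tables and the phototropism tables of the authors were not used. In edgeR 4.0.16 (R 4.3.3), the 34315 of 46480 genes that reached 10 counts in 3 or more of the 72 field libraries were scaled by TMM and fitted in 1 quasi-likelihood model with 12 groups (side by time of day), as the study's methods combine the days. Contrasts were west minus east at ZT16 and its differences from ZT20 and ZT4. Days were compared in a model with 24 groups. P-values were adjusted by Benjamini-Hochberg over all genes tested, with a threshold of 0.05, and an SE is the log2 fold change divided by the root of F. In simulated data of 34081 genes, 72% of 1.5-fold and 92% of 2-fold side differences at ZT16 were recovered. These were set in genes above a minimum mean level, in independent libraries without pairs, so the shares need not hold in the measured data.

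Same-numbered west and east libraries deviated from their group means together (correlations of 0.419 to 0.624 in 6 pairs over genes averaging 10 CPM or more, against -0.452 to -0.0453 for other numbers), so the numbers were taken to pair the samples. This pairing comes from the data and from the methods, in which both sides of each plant were peeled. Values from the fit with the replicate block are printed where they change the call of a named gene between the sides at ZT16 or move a list's count there by over 1.5 times. List counts against ZT20 and ZT4 are from the fit without it.

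Named are, per direction, the 8 genes with the largest fold among those past the threshold averaging 10 CPM or more, no overlap of the sides and a listed homolog, then the member of each of 31 gene lists with the smallest p per direction, and every gene whose ID the study gives. Other genes named are further members of the lists past the threshold, chosen after their values were seen. Members and lists were chosen with earlier results of these data known. Homologs come from the study's supplementary sheets (10485 of 11587 listed genes have one), which were partly selected by side differences and phases, so list members are no random sample of a family. No sequence or position is given, since the reference table used here is of another assembly and none of its identifiers matched. Alternatives were DESeq2 1.42.0, other filters and scaling, the 12 libraries alone, single days, day as a term and leaving out each library.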

Additional observations from a re-analysis of the deposited data

Results flagged for a closer look

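In the named genes, 1 library stood far from the other 5 of its side in 10 of 160 groups of 6 (Dixon's gap test, which chance passes in about 1 of 20 groups, here 8). In CPM, KCS12-like Ha412HOChr01g0016111 was at 4.61 in west ZT16 2, LHY-like Ha412HOChr15g0736201 at 2.14 in west ZT16 3, BRX-like Ha412HOChr07g0294971 at 6.21 in west ZT40 1 and NPY8-like Ha412HOChr12g0580251 at 86.0 in west ZT40 2. The library west ZT40 3 held 3 of the values, 14.6 in ETR2-like Ha412HOChr03g0142771, 2.77 in RVE8-like Ha412HOChr07g0311811 and 23.97 in NFD1-like Ha412HOChr12g0546161. On the east side these were 3.37 in RVE6-like Ha412HOChr16g0792081 (ZT16 1), 49.6 in TPS7-like Ha412HOChr16g0783731 (ZT16 2) and 10.2 in IRX9-L-like Ha412HOChr12g0570981 (ZT40 1).

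For 14 named genes the log2 side difference at ZT16 differed from that at ZT20 (edgeR interaction, adjusted p under 0.05). It was more west at ZT16 in PIN7-like by 2.60, IAA19-like Ha412HOChr12g0543321 by 2.40, BRX-like by 2.12, ARF16-like by 2.08, SAUR12-like by 1.67, the family 61 glycosyltransferase gene by 1.43, EXPA8-like by 1.30, IAA4-like Ha412HOChr01g0004341 by 1.15, CSLC4-like by 1.07, IAA14-like by 1.01, LNG1-like by 0.91 and GAUT4-like by 0.38. It was more east in CPD-like (-1.83) and in the major facilitator superfamily gene (-0.98).

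For 32 named genes it differed from that at ZT4. Genes of the auxin lists more west at ZT16 were PIN7-like by 3.50, IAA19-like Ha412HOChr12g0543321 by 2.86, SAUR12-like by 1.91, IAA14-like by 1.72, ARF16-like by 1.57, IAA4-like Ha412HOChr01g0004341 by 1.39, JAR1-like (GH3 list, a jasmonate enzyme by its homolog) by 1.17, IAA4-like Ha412HOChr10g0435441 by 0.99, ARF19-like Ha412HOChr03g0103791 by 0.81 and NPY8-like by 0.58. Wall genes were XTH33-like by 3.16, XTH16-like by 2.23, EXPL1-like by 2.01, EXPA8-like by 1.64, CSLC4-like by 1.204, FLA9-like by 1.14, XTH8-like by 0.93 and GAUT4-like by 0.52. Others were ENODL8-like by 1.89, the family 61 glycosyltransferase gene by 1.82, BRX-like by 1.80, DWF1-like by 1.76, LNG1-like by 1.03 and HEMD-like by 0.82. More east at ZT16 were CPD-like (-2.94), GA2OX2-like (-2.05), the major facilitator superfamily gene (-1.69), KUP6-like (-1.57), the DAHP synthetase gene (-1.29), MRH2-like (-0.90), ARF8-like (-0.67) and EIN3-like Ha412HOChr14g0649831 (-0.36).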

How the results depend on the processing

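The count of 1983 genes was 4289 with the replicate block, 4130 with the block in the 12 libraries alone, 347 on day 1 alone and 1151 on day 2 alone, which have fewer libraries. Other tools and filters gave 1749 to 2918 (lowest with no filter, highest with DESeq2), and leaving out 1 library 1347 to 2024. Against ZT20 the 134 genes were 282 with day as a term and 707 with the block (90 to 161 leaving out 1 library). Against ZT4 the 624 were 1035 and 1835 (478 to 644). Between days the block gave 1. The causes were not tested.

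Of the 55 named genes past the threshold, 0 changed direction in any setting run, and 55 passed with the block, 55 with DESeq2, 53 with no count filter, 52 in the 12 libraries alone, 47 on day 2 and 26 on day 1. The block changed no other side call of a named gene at ZT16 beside those printed in the report. In 36 of 660 values with 1 library left out, in 6 of the 55 genes, the call was lost. It was lost in 40 of the 124 list members and named genes that passed. Directions changed only in genes that did not pass. These were, on day 1, TOC1-like (0.069), PRR7-like Ha412HOChr08g0341571 (-0.10), LUX-like (-0.017), RVE8-like Ha412HOChr14g0679651 (0.24) and LHY-like (0.10), and on day 2 RVE8-like Ha412HOChr07g0311811 (0.15) and PRR5-like (0.10). With the block RVE8-like Ha412HOChr14g0679651 was at 0.025. Leaving out 1 library gave -0.20 to 0.022 in TOC1-like, -0.11 to 0.048 in PRR3-like Ha412HOChr07g0319851, -0.28 to 0.088 in PRR5-like, -0.11 to 0.017 in EF, -0.011 to 0.11 in HB2-like, -0.11 to 0.086 in RVE8-like Ha412HOChr14g0679651 and -0.46 to 0.10 in LHY-like. With RLE scaling 1167 of 2012 genes were higher west, and with the block 2166 of 4289, against 1177 of 1983. A threshold count of 10 is 0.997 CPM in the shallowest of the 12 libraries and 0.351 CPM in the deepest.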

Other observations

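Side calls at ZT12 and ZT20 are given here for lists counted at ZT16, and no difference from ZT12 was tested. Of 215 ribosomal protein genes, 0 were higher west and 24 higher east at ZT12 (medians of the log2 fold change: -0.23 at ZT12, 0.07 at ZT16 and 0.31 at ZT20), and 101 were higher west and 0 higher east at ZT20, against 2.63% and 0.918% of all genes there. In the direct test 0 of them were more west and 1 less west at ZT16 than at ZT20 by the threshold. Of 39 genes for cyclins and replication, 5 were higher east at ZT12, and 7 were higher west and 4 higher east at ZT20, and 1 was less west at ZT16 than at ZT20 in the direct test. For the light harvesting genes, all below 0 at ZT16, the medians were 0.13 at ZT8, -0.21 at ZT12, -0.50 at ZT16 and -0.04 at ZT20. At ZT12 none of the 10 passed and at ZT20 1 was higher west.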
